A study of Mus musculus with 37 samples.

Results

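Astrocytes take up potassium and remove sodium with the sodium pump, and they move chloride, bicarbonate and calcium with cotransporters and exchangers that run on the sodium gradient the pump makes. The pump is built from a catalytic alpha subunit and a beta subunit that carries it to the membrane, and a small FXYD protein can bind the complex and tune it. Here 7 genes of this machinery were followed, out of 21975 gene identifiers in the deposited tables. They are the beta subunits Atp1b1, Atp1b2 and Atp1b3, the pump regulator Fxyd1 (phospholemman), the sodium-potassium-chloride cotransporter Slc12a2 (NKCC1), the electrogenic sodium-bicarbonate cotransporter Slc4a4 (NBCe1) and the sodium-calcium exchanger Slc8a1 (NCX1). The genes were chosen by symbol, with symbols matched to the identifiers of the count and TPM tables, and all 7 were found.

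The libraries were made from ACSA-2-selected hippocampal astrocytes of 20 adult male mice, 4 months after controlled cortical impact (CCI) or sham surgery, with the hemisphere of the impact (ipsilateral) and the opposite one (contralateral) in separate libraries. Injured mice with recurrent seizures on EEG were PTE+, injured mice without them PTE-, and sham mice had the craniectomy and the electrodes without the impact. All mice were wild type; the sample labels name the strain CD31 and the methods CD1. There were 20 contralateral libraries (5 PTE+, 10 PTE- and 5 sham) and 17 ipsilateral ones (4 PTE+, 8 PTE- and 5 sham). Both hemispheres were available for 17 mice, and 3 mice (PTE+ a8_17, PTE- a8_13 and PTE- a9_20) gave the contralateral library alone. Every library is 1 mouse, and PTE status was read from each animal's own EEG, so status and any other difference between these animals cannot be told apart.

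Contralateral libraries held 25371887 to 55333329 counts and ipsilateral libraries 36925501 to 59846479. All 11 astrocyte markers, among them Aqp4, Gja1, Slc1a3 and Aldoc, were above 3 counts in each of the 37 libraries, and their summed level ran from 6180 to 22260 TPM. Summed neuronal markers reached 1158 TPM at most. Genes of other cells were at or under 3 counts in many libraries, for example the choroid plexus gene Ttr in 25 of 37. The ipsilateral library of PTE- mouse a8_11 stood apart, with 9020 genes detected and 6180 TPM of astrocyte markers. It held 1 count of Atp1b1, 2 of Slc12a2 and 1 of Slc8a1. It also held 6520 TPM of summed choroid plexus and ependymal markers, against 347 TPM in the contralateral library of this mouse. The highest ipsilateral PTE- library reached 9038 TPM of these markers. Their part in the values of the a8_11 library was not tested. In bulk RNA, fewer astrocytes and less RNA per astrocyte cannot be told apart.

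Levels are given per length, as TPM (transcript abundance set to 1 total in all libraries), so that genes can be compared within a library. Fxyd1 was the most abundant of the 7, with a median of 1217 TPM over the 37 libraries and a range of 780 to 2187. Atp1b2, the beta subunit also known as the glial adhesion molecule AMOG, followed with a median of 323 TPM and a range of 99.5 to 653. Fxyd1 exceeded Atp1b2 in 20 of 20 contralateral and 17 of 17 ipsilateral libraries. Slc4a4 and Atp1b3 came next, with medians of 136 and 132 TPM.

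Slc4a4 and Atp1b3 were the neighbours that did not differ beyond their spread. Slc4a4 was the higher in 11 of 20 contralateral libraries (two-sided exact sign-flip permutation test on log2(TPM + 1), p = 0.853) and in 7 of 17 ipsilateral ones (exact sign-flip p = 0.358). Atp1b1 lay below Atp1b3, with a median of 67.4 TPM, in 15 of 20 contralateral libraries (exact sign-flip p = 0.00115, 0.00138 after Benjamini-Hochberg adjustment over the 6 neighbouring pairs) and in 17 of 17 ipsilateral ones. Slc12a2 had a median of 13.04 TPM and Slc8a1 one of 0.16 TPM. For the other steps of the order the sign was the same in every library of both hemispheres, and the exact sign-flip p was the smallest that 20 or 17 libraries can give (1.91e-06 and 1.53e-05). The order was taken from the contralateral medians, so the contralateral p-values test a direction chosen from the same libraries. The ipsilateral libraries, which come from the same mice, did not set it.

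**Figure D1:**
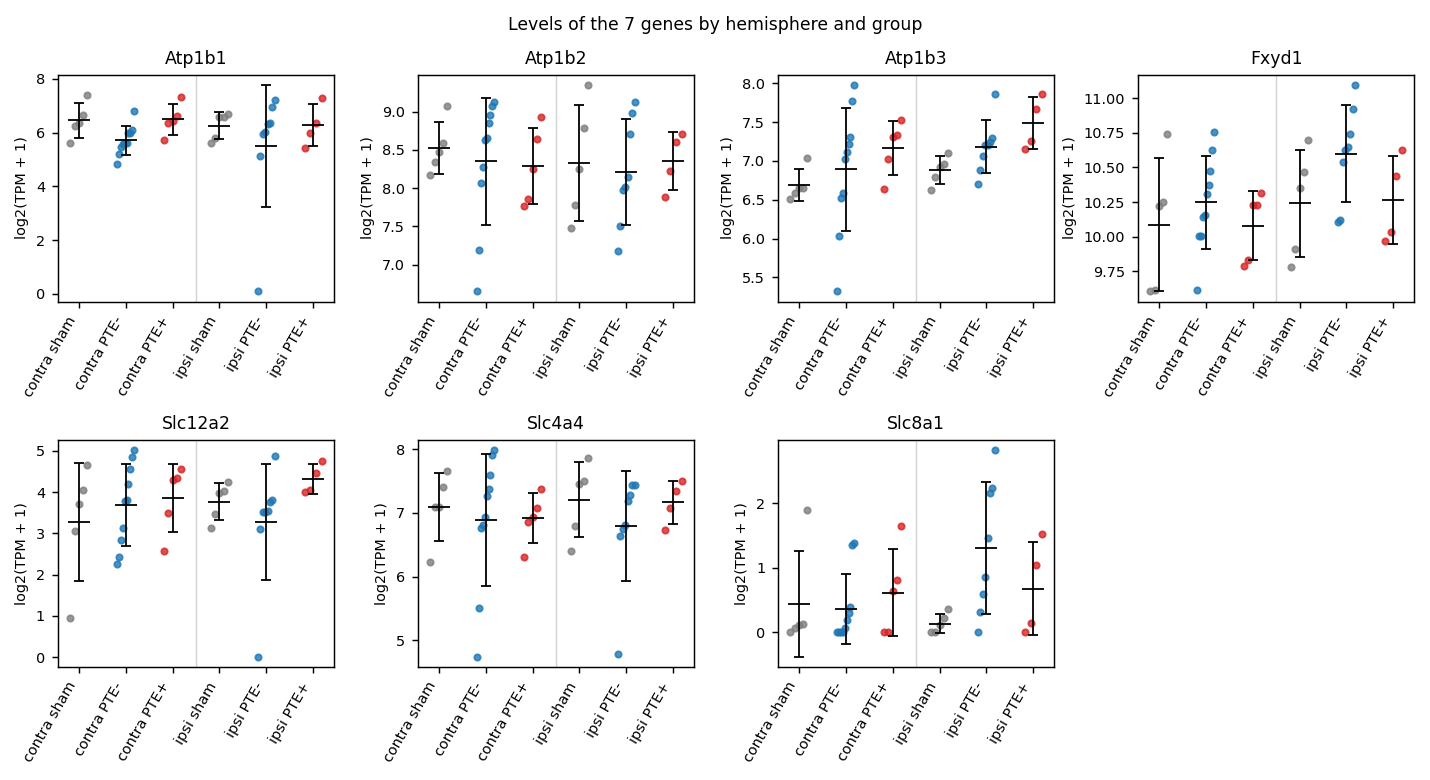
Level of each of the 7 genes as log2(TPM + 1) on the vertical axis, with its own scale in each panel; points are libraries, and the horizontal bar and whiskers give the mean ± SD of a group. For Atp1b1 and Slc12a2, 1 ipsilateral PTE- library lies near 0.

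The spread over libraries also differed between the genes. The coefficient of variation of TPM over the 37 libraries was 26.3% for Fxyd1, 33.8% for Atp1b3, 38.6% for Slc4a4 and 38.9% for Atp1b2. It was 50.1% for Atp1b1, 55.4% for Slc12a2 and 163% for Slc8a1. Slc8a1 was above 3 counts in 13 of 20 contralateral and 13 of 17 ipsilateral libraries, so its level often rested on very few reads.

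Among the beta subunits, Atp1b2 made up most of the summed TPM of Atp1b1, Atp1b2 and Atp1b3. Its share had a median of 61.3% over the 37 libraries and ran from 32.4% to 84.2%, and it was the largest of the shares in 36 of 37 libraries. The exception was the ipsilateral library of PTE- mouse a9_16, in which Atp1b3 was the largest. The median share was 25.5% for Atp1b3 and 13.5% for Atp1b1.

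In the contralateral hippocampus, the Atp1b2 share was 56.4% ± 6.39 (SD, n = 5) in PTE+ and 65.4% ± 2.99 (n = 5) in sham mice. The 5 PTE+ libraries lay between 50.8% and 65.5% and the 5 sham libraries between 61.4% and 68.2%, so the groups overlapped. The difference was -8.92 percentage points (two-sided exact permutation test, p = 0.0317, 0.190 after Benjamini-Hochberg adjustment over the 6 comparisons), and it does not pass the adjustment. Contralateral PTE- libraries had 63.9% ± 13.8 (SD, n = 10). In the other 5 comparisons the difference in share was between -7.41 and -1.51 percentage points (exact permutation p = 0.280 to 0.817).

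**Figure D2:**
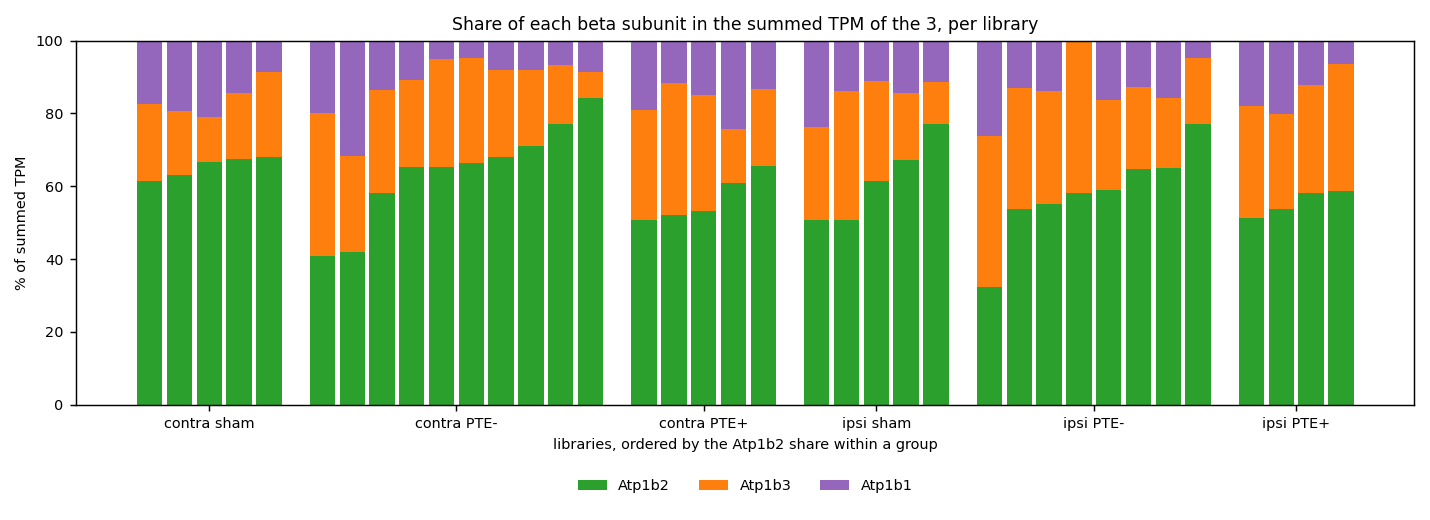
Share of Atp1b2 (green), Atp1b3 (orange) and Atp1b1 (purple) in their summed TPM, in percent, with 1 bar for each of the 37 libraries ordered by the Atp1b2 share within its group. Atp1b2 takes the largest share in 36 of 37 bars, and its share runs from 32.4% to 84.2%.

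Each gene was then compared between PTE+, PTE- and sham mice within a hemisphere, between hemispheres within a group, and for the difference of the hemispheres between groups, in 11 comparisons. In edgeR's quasi-likelihood test, 0 of the 7 genes had an adjusted p under 0.05 in any of them (lowest adjusted p 0.9998). The lowest adjusted p of any of the 7 was 0.715 with DESeq2 and 0.848 with limma on log2(TPM + 1). Over all genes the same threshold was passed by 0.00683% of 14642 in contralateral PTE+ against PTE- mice and by 0% in the other 10 comparisons. Without adjustment, 1 gene of the 7, Slc8a1, had a p under 0.05, in 2 of the 11 comparisons. Over all genes, the share with an unadjusted p under 0.05 was 2.21% for PTE+ against PTE-, 1.54% for PTE- against sham and 1.23% for PTE+ against sham in the contralateral hippocampus. In the ipsilateral hippocampus it was 1.75%, 1.58% and 1.66%. It was 2.93%, 4.56% and 2.05% for the hemispheres within PTE+, PTE- and sham mice, and 2.94% and 3.13% for the difference of the hemispheres between PTE+ and PTE- and between PTE- and sham mice.

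The groups of libraries overlapped in CPM (counts relative to the TMM-scaled library size) for all 7 genes in all 6 comparisons within a hemisphere. Over all genes, the groups did not overlap for 0.0478%, 0.0273% and 0.628% in the contralateral hippocampus and for 0.168%, 0.0939% and 1.1% in the ipsilateral one, for PTE+ against PTE-, PTE- against sham and PTE+ against sham.

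**Figure D3:**
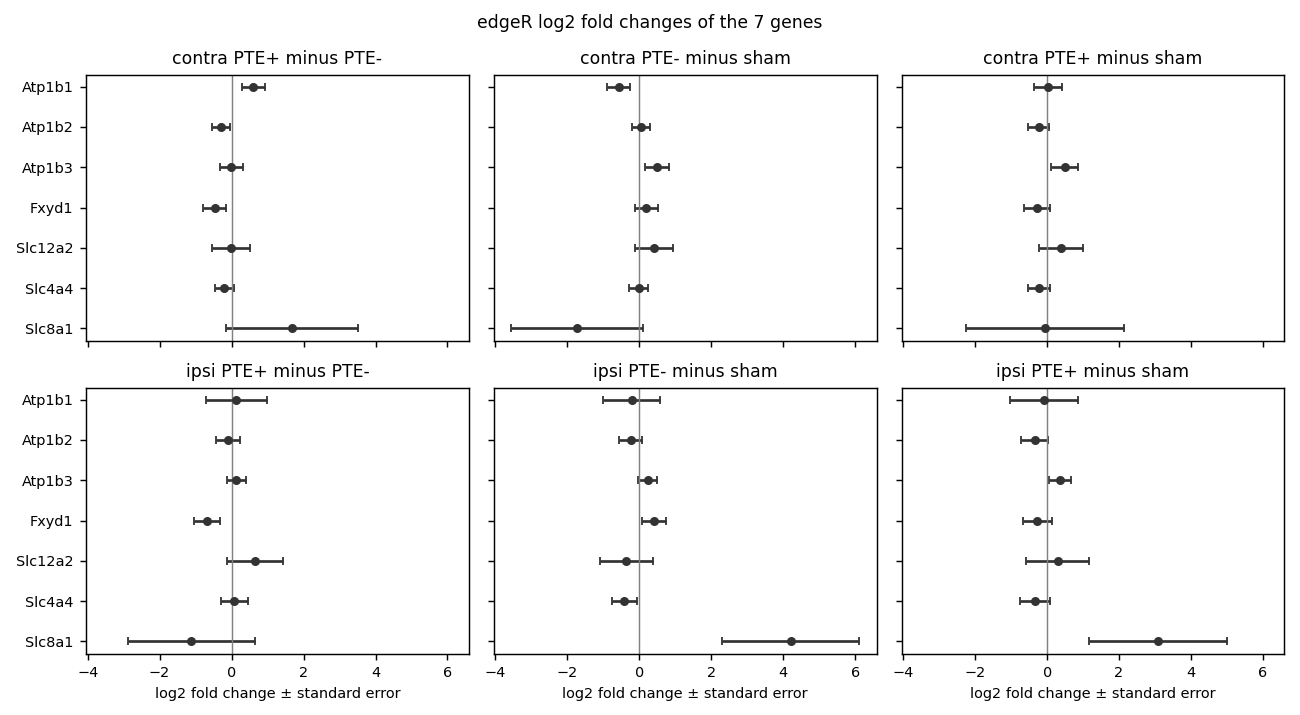
edgeR log2 fold change of each gene (points) with its standard error (whiskers) in the 6 comparisons within a hemisphere, on 1 horizontal scale; the grey line is no difference. Most points lie within 1 of 0, and Slc8a1 in ipsilateral PTE- against sham mice lies at 4.20 with a standard error of 1.91.

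Atp1b1, the beta subunit that is abundant in neurons, was lower in most contralateral PTE- libraries than in the other groups, without passing the test. The PTE+ libraries held 52.0, 81.0, 86.2, 97.9 and 159 TPM. The 10 PTE- libraries ran from 27.3 to 110 TPM with a median of 47.8, and the sham libraries held 48.6, 75.1, 82.1, 99.2 and 170 TPM. The groups overlapped, and 9 of 10 PTE- libraries lay under the second lowest library of each of the other groups. This cut was chosen with the values known, and the share of all genes that meet it was not computed.

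The log2 fold change of Atp1b1 was 0.61 (SE 0.33) in PTE+ against PTE- mice (edgeR unadjusted p = 0.0786) and -0.58 (SE 0.33) in PTE- against sham mice (unadjusted p = 0.0934). Neither passed the threshold, and these comparisons share the PTE- libraries. The 8 neuronal markers had a median log2 fold change of 1.30 in the first of them, with 8 of 8 positive and Snap25 at 1.36 (edgeR unadjusted p = 0.0401). In the second their median was -0.83, with 7 of 8 negative. Endothelial and mural markers were positive for 7 of 7 genes in the first, with a median of 0.92, and astrocyte markers negative for 10 of 11. The summed TPM of the neuronal markers ran from 97.3 to 1158 in PTE+ and from 90.9 to 237 in PTE- mice. The part of these marker sets in the Atp1b1 values was not tested. Without PTE- mouse a9_15, the highest of its group at 110 TPM, the log2 fold change against PTE- mice was 0.81 (edgeR unadjusted p = 0.0127), and without PTE+ mouse a9_19 it was 0.35. Without sham mouse a9_11 the log2 fold change of PTE- against sham mice was -0.34. Exons of Atp1b1 share 575 bases with Nme7 on the opposite strand, and the library kit does not mark strand, so reads of that stretch cannot be assigned to 1 of them.

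In the ipsilateral hippocampus Atp1b1 showed no such order. The PTE+ libraries held 42.4, 62.0, 82.2 and 156 TPM, the PTE- libraries ran from 0.07 to 147 with a median of 71.5, and the sham libraries ran from 48.7 to 102. With the edgeR fit, PTE+ differed from PTE- mice by 0.13 (SE 0.85) on the log2 scale. On log2(CPM + 1) the difference of means was 0.75 with PTE- mouse a8_11 and -0.11 without it (exact permutation p = 0.735 and 0.803).

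Atp1b2 showed no difference between the groups that passed the test. The contralateral sham libraries held 288, 323, 355, 384 and 539 TPM, the PTE+ libraries 218, 231, 304, 399 and 486 TPM, and the 10 PTE- libraries ran from 99.5 to 557 TPM with a median of 400. Its log2 fold changes in the 6 comparisons within a hemisphere lay between -0.34 and 0.05, each with a standard error between 0.25 and 0.37. For ipsilateral PTE- against sham mice it was -0.24, and -0.15 without PTE- mouse a8_11. The unadjusted p in these comparisons was 0.267 or more.

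Atp1b3, the third beta subunit, had higher medians in injured than in sham mice, without passing the test. The ipsilateral sham libraries held 97.7, 110, 120, 124 and 136 TPM, and the PTE+ libraries 141, 152, 202 and 232 TPM. On this scale the PTE+ and sham libraries did not overlap, and the share of all genes without overlap in TPM was not computed. On the CPM scale of the test they overlapped, while 1.1% of all genes did not. The log2 fold change was 0.36 (SE 0.30) for ipsilateral PTE+ against sham (edgeR unadjusted p = 0.240) and 0.23 (SE 0.26) for PTE- against sham. In the contralateral hippocampus it was 0.49 (SE 0.37) for PTE+ against sham and 0.49 (SE 0.33) for PTE- against sham (edgeR unadjusted p = 0.202 and 0.145). Without PTE+ mouse a9_18 the ipsilateral PTE+ value was 0.20, and without PTE- mouse a9_16 the ipsilateral PTE- value was 0.13. The sham libraries serve in each of these comparisons.

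Between the hemispheres, Atp1b3 was higher on the ipsilateral side in 5 of 5 sham, 5 of 8 PTE- and 3 of 4 PTE+ mice. The mean difference of log2(CPM + 1) was 0.32 in sham mice (exact sign-flip p = 0.0625, the smallest that 5 mice allow), 0.44 in PTE- and 0.33 in PTE+ mice (exact sign-flip p = 0.133 and 0.375). The edgeR log2 fold changes were 0.31 (SE 0.31), 0.31 (SE 0.24) and 0.32 (SE 0.34), and their differences between groups were -0.0031 (SE 0.39) for PTE- against sham and 0.0078 (SE 0.42) for PTE+ against PTE- mice.

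In TPM over the 37 libraries Fxyd1 was the least variable of the 7, but not in CPM in every group. Ipsilateral PTE- libraries had an SD of 41.6 CPM at a mean of 179 for Atp1b3, and of 132 at 258 for Fxyd1. In the ipsilateral hippocampus the PTE+ libraries held 1002, 1046, 1384 and 1581 TPM, the sham libraries 878, 963, 1305, 1416 and 1658 TPM, and the 8 PTE- libraries ran from 1101 to 2187 TPM with a median of 1588. The PTE- group reached highest, and all groups overlapped. The log2 fold change was -0.68 (SE 0.37) for PTE+ against PTE- (edgeR unadjusted p = 0.0805), 0.41 (SE 0.34) for PTE- against sham and -0.27 (SE 0.39) for PTE+ against sham. Without PTE- mouse a8_11, whose library was the highest of its group in CPM, the first of these was -0.37 and the second 0.16. On log2(CPM + 1) the difference between PTE+ and PTE- mice was -0.59 with that mouse and -0.41 without it (exact permutation p = 0.0768 and 0.0455, neither adjusted). Without sham mouse a9_9, PTE+ differed from sham mice by -0.0695 with edgeR. In the contralateral hippocampus PTE+ differed from PTE- mice by -0.47 (SE 0.32, edgeR unadjusted p = 0.150).

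Slc12a2, which carries sodium, potassium and chloride into the cell, varied widely within groups. The contralateral sham libraries held 0.92, 7.27, 12.02, 15.5 and 24.4 TPM, the PTE+ libraries 4.99, 10.2, 18.8, 19.2 and 22.6, and the 10 PTE- libraries ran from 3.81 to 31.4 with a median of 12.9. In the ipsilateral hippocampus the PTE+ libraries held 15.03, 15.6, 20.9 and 26.1 TPM, the sham libraries 7.79, 10.1, 14.8, 15.2 and 18.1, and the 8 PTE- libraries ran from 0.01 to 28.3 with a median of 10.6. The ipsilateral PTE+ libraries thus lay in the upper part of the range of the others. The log2 fold change for ipsilateral PTE+ against PTE- mice was 0.65 (SE 0.78, edgeR unadjusted p = 0.416). In the 6 comparisons within a hemisphere its log2 fold changes lay between -0.36 and 0.65, each smaller than its standard error. The lowest of them, for ipsilateral PTE- against sham mice, was -0.14 without PTE- mouse a8_11.

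Slc4a4, which brings sodium and bicarbonate across the membrane together, showed no difference between the groups that passed the test. The contralateral PTE+ libraries held 78.3, 115, 121, 135 and 166 TPM, the sham libraries 73.9, 136, 136, 168 and 200, and the 10 PTE- libraries ran from 25.9 to 252 with a median of 137. The PTE- group held both the lowest and the highest contralateral library. The ipsilateral medians were 128 TPM in PTE-, 148 in PTE+ and 175 in sham mice. The log2 fold changes of Slc4a4 within a hemisphere lay between -0.42 and 0.07, with standard errors between 0.26 and 0.41. For ipsilateral PTE- against sham mice the value was -0.42 (SE 0.34), and -0.23 without PTE- mouse a8_11. For ipsilateral PTE+ against sham mice it was -0.34 (SE 0.41). The ipsilateral side was the lower one in 7 of 8 PTE- mice, with a mean difference of -0.22 on log2(CPM + 1) (exact sign-flip p = 0.508). Without mouse a8_11 that difference was 0.04 (exact sign-flip p = 1).

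Slc8a1, which exports calcium in exchange for sodium, was the 1 gene with an unadjusted p under 0.05. Its exons share 296 bases with the antisense gene AC122399.1 and 8 with Gm11096, both on the opposite strand. The library kit does not mark strand, so reads of those stretches cannot be assigned to 1 gene. In the ipsilateral hippocampus the sham libraries held 0, 1, 15, 98 and 42 counts, and the 8 PTE- libraries 1, 145, 306, 514, 188, 2284, 1005 and 556 counts. On the CPM scale the means were 12.5 in PTE- and 0.675 in sham mice, and the PTE+ libraries held 0, 14, 142 and 1031 counts. More than 3 counts were present in 7 of 8 PTE- and 3 of 5 sham libraries. In CPM those 7 PTE- libraries lay above all 5 sham libraries, while the one of mouse a8_11 lay among them. In TPM PTE- mouse a8_14, at 0.25, lay under sham mouse a8_15, at 0.28. The share of all genes that separate with 1 library set aside was not computed.

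The log2 fold change of Slc8a1 in ipsilateral PTE- against sham mice was 4.20 (SE 1.91, edgeR unadjusted p = 0.0406, adjusted p = 0.9999). On log2(CPM + 1) the means differed by 2.47 with mouse a8_11 (two-sided exact permutation p = 0.0109, 1 of 77 such tests, not adjusted). Without it they differed by 2.90 (exact permutation p = 0.00126, the smallest these libraries allow). The mouse was set aside with its values known. The remaining libraries of the 2 groups do not overlap in CPM, which fixes this p at its floor. Mice named a8 and a9 were also compared apart. The difference was 1.02 among 5 a8 mice (exact permutation p = 0.400) and 3.33 among 8 a9 mice (exact permutation p = 0.0179). The a9 value is the smallest p those mice allow. The 5 a8 mice, a8_11 among them, cannot give a p under 0.05. The split thus does not show whether the difference is absent among a8 mice. With the prefix as a covariate the edgeR log2 fold change was 3.46 (unadjusted p = 0.0811). Leaving out 1 library at a time gave unadjusted p-values between 0.0233 and 0.0784 (edgeR), over 0.05 without PTE- mouse a9_15 or a9_16 or without any 1 sham mouse other than a9_10. In PTE+ against sham mice the log2 fold change was 3.09 (SE 1.92, edgeR unadjusted p = 0.1247), and it was 0.44 without PTE+ mouse a9_19, whose library held 1031 counts.

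In the contralateral hippocampus Slc8a1 ran from 0 to 328 counts in PTE-, from 0 to 458 in PTE+ and from 0 to 957 in sham libraries. The log2 fold change there was 1.68 (SE 1.83) for PTE+ against PTE- and -1.74 (SE 1.82) for PTE- against sham mice, each smaller than its standard error. The second of these was 1.27 without sham mouse a9_11, whose library held 957 counts.

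Markers of other cells were read in the same ipsilateral comparison of PTE- with sham mice. The neuronal markers were positive for 6 of 8 genes with 0 of 8 under an unadjusted p of 0.05, and their summed TPM ran from 61.3 to 623 in PTE- and from 33.8 to 476 in sham mice. Of the 11 astrocyte markers, 3 were positive and 8 negative, and Aldoc was lower by 0.72 and Aldh1l1 by 0.63 on the log2 scale (edgeR unadjusted p = 0.0145 and 0.00882). The choroid plexus and ependymal markers were positive for 7 of 7 genes, with a median log2 fold change of 1.87 and 1 of 7, Enkur, under an unadjusted p of 0.05 (edgeR p = 0.0474). Their summed TPM ran from 227 to 9038 in PTE- and from 49.6 to 1121 in sham mice. The oligodendrocyte markers were negative for 7 of 8 genes tested, with a median of -1.60 and 0 of 8 under 0.05, and their summed TPM ran from 61.5 to 781 in PTE- and from 105 to 1760 in sham mice. Their part in the Slc8a1 values was not tested.

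Between hemispheres, Slc8a1 was higher on the ipsilateral side in 7 of 8 PTE- mice, the exception being a8_11. In edgeR the difference of the hemispheres within PTE- mice was 2.76 (SE 1.70, unadjusted p = 0.114). On log2(CPM + 1) the mean difference was 2.05 (two-sided exact sign-flip p = 0.0469, not adjusted). Without a8_11 it was 2.50 (exact sign-flip p = 0.0156, the smallest that the remaining 7 mice allow). In sham mice Slc8a1 was higher on the ipsilateral side in 1 and lower in 3 of 5, with a mean difference of -0.90 on log2(CPM + 1) (exact sign-flip p = 0.375). The sham mean rested on mouse a9_11, whose contralateral library held 957 counts against 0 to 52 in the other sham mice. The difference of the hemispheres between PTE- and sham mice was 5.83 (SE 2.80, edgeR unadjusted p = 0.0455). With the mouse as a replicate block it was 5.89 (unadjusted p = 0.177), and without sham mouse a9_11 it was 2.63 (unadjusted p = 0.357). Without PTE- mouse a8_11 it was 6.06 (unadjusted p = 0.0419).

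**Figure D4:**
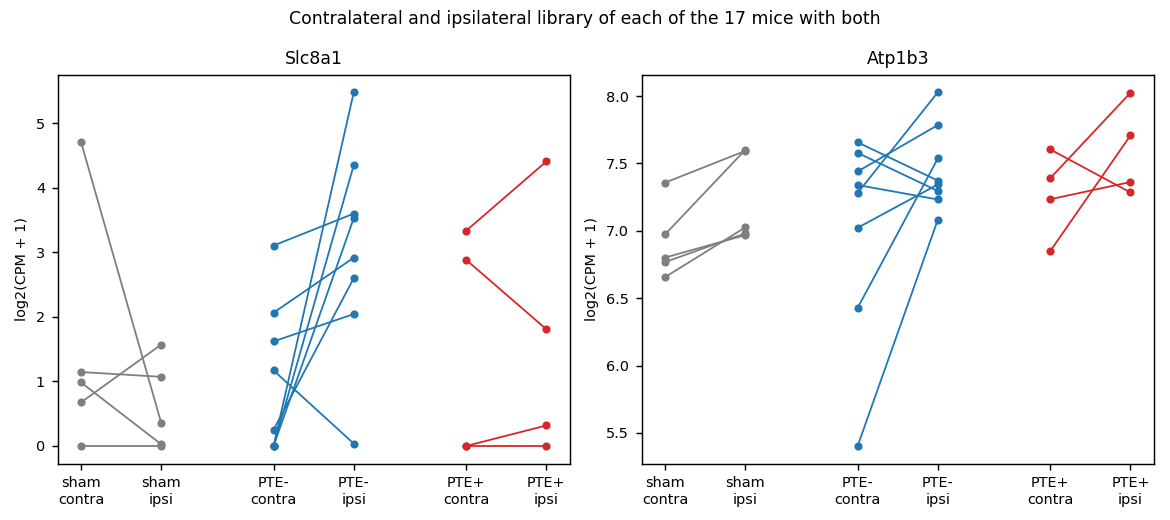
log2(CPM + 1) of Slc8a1 (left) and Atp1b3 (right) in the contralateral and ipsilateral library of each of the 17 mice with both, joined by a line. Slc8a1 is higher on the ipsilateral side in 7 of 8 PTE- mice, and Atp1b3 in 5 of 5 sham mice.

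The genes were set beside 57 others of ion transport: the remaining pump subunits and FXYD proteins, cation-chloride cotransporters, their kinases, bicarbonate and proton exchangers, calcium exchangers and pumps, and carbonic anhydrases. Between 48 and 50 of them passed the filter on low counts. In the contralateral hippocampus 0 of 48 had an unadjusted p under 0.05 in PTE+ against PTE- mice, and 1 of 48 in each comparison with sham. In the ipsilateral hippocampus the counts were 0, 2 and 0 of 50 in the same order. None of the 57 passed an adjusted p of 0.05 in edgeR in the 11 comparisons.

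Of the other pump subunits and regulators, Atp1b4 was above 3 counts in 1 of 37 libraries. Among the FXYD proteins, Fxyd5 had a median of 89.4 TPM, Fxyd6 46.6 and Fxyd7 16.5, all below Fxyd1 at 1217 TPM.

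The listed genes with an unadjusted edgeR p under 0.05 were few and mostly of low level. Slc9a5, a sodium-proton exchanger, stood at 0.333 CPM in contralateral PTE- and 7.37 CPM in sham mice (log2 fold change -4.46, p = 0.0299), with over 3 counts in 4 of 10 and 4 of 5 libraries. Slc12a8 stood at 4.31 CPM in contralateral PTE+ and 0.485 CPM in sham mice (3.14, p = 0.0217). In ipsilateral PTE- against sham mice, Fxyd7 stood at 12.8 and 1.97 CPM (2.69, p = 0.0351), and Car2, a carbonic anhydrase that supplies bicarbonate, at 739 and 1099 CPM (-0.57, p = 0.0381). Slc4a8, a bicarbonate transporter, stood at 18.7 CPM in the ipsilateral and 52.3 CPM in the contralateral hippocampus of sham mice (-1.51, p = 0.0231). The FXYD protein Fxyd4 was above 3 counts in 1 of 8 ipsilateral and 0 of 8 contralateral PTE- libraries (p = 0.00753), so its difference rests on 1 library.

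The genes whose levels ran most like those of the 7 over the 20 contralateral libraries were found by Spearman correlation of log2(CPM + 1) over 11365 genes. Libraries of different depth and cell content enter each value, and the values are descriptions. For Fxyd1 they were Pla2g7 (0.92) and Ndufc2 (0.91), for Atp1b2 Tnks2 (0.88) and Ak4 (0.85), and for Atp1b1 Ell2 (0.87) and Pcmt1 (0.82). For Slc12a2 they were Tril (0.85) and Trio (0.84), for Atp1b3 Tmco4 (0.82), for Slc4a4 Col1a1 (0.82) and Evc (0.81), and for Slc8a1 Got1 (0.72) and Azin2 (0.71). Over the 17 ipsilateral libraries these pairs stood between -0.23 (Slc8a1 with Got1) and 0.45 (Atp1b2 with Ak4). Among the 7 genes themselves, Atp1b2 and Slc4a4 had a correlation of 0.66 over the contralateral and 0.41 over the ipsilateral libraries.

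In the mouse assembly GRCm38, Atp1b1 (ENSMUSG00000026576) lies on chromosome 1 at 164437109-164458355, Atp1b2 (ENSMUSG00000041329) on chromosome 11 at 69599736-69605942, Atp1b3 (ENSMUSG00000032412) on chromosome 9 at 96332655-96364442 and Fxyd1 (ENSMUSG00000036570) on chromosome 7 at 31051678-31057199. Slc12a2 (ENSMUSG00000024597) lies on chromosome 18 at 57878678-57946821, Slc4a4 (ENSMUSG00000060961) on chromosome 5 at 88886818-89239653 and Slc8a1 (ENSMUSG00000054640) on chromosome 17 at 81373105-81738377. All are annotated as protein-coding genes, and counts and TPM are sums over a whole gene, so isoforms were not told apart.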

How the data were processed

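RNA of ACSA-2-selected hippocampal astrocytes was sequenced in 37 libraries. Per the submitters' notes, reads were trimmed (Trim Galore 0.6.4) and aligned to mm10 with Bowtie2 2.4.1 inside RSEM 1.2.28. The deposited expected counts per gene are whole numbers with no normalization by the authors. The deposited TPM come from that RSEM run, divided by transcript length and brought to 1 common total. The annotation release is not given in the sources used here. Gene symbols and positions came from GENCODE's GRCm38 annotation, which named 21856 of 21975 identifiers.

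Groups were taken from the sample labels. The main test was edgeR 4.0.16 under R 4.3.3 (filterByExpr by group, TMM, quasi-likelihood F test, Benjamini-Hochberg adjustment over all genes tested). The 3 groups of a hemisphere entered 1 fit, and the 17 mice with both libraries entered the comparisons of hemispheres. Genes tested numbered 14642, 14903 and 15731. Single genes were also compared by two-sided exact permutation tests on log2(CPM + 1), with a pseudocount of 1. Up to 3 counts in a library was treated as the counting limit, which covers counting error only, since no molecular identifiers are named. The mouse names pair the hemispheres by animal: the deviations of the libraries of 1 mouse from their group means had a median correlation of 0.0765, against -0.0189 between other mice of a group.

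Alternatives were RLE size factors, no filter, DESeq2 1.42.0, limma 3.58.1 on log2(TPM + 1), the compared groups alone, the mouse name prefix or the count of detected genes as a covariate, the mouse as a replicate block, all 37 libraries, and leaving out 1 library or mouse in turn. Leaving out libraries under 12000 detected genes was added after the data had been seen. Setting PTE- mouse a8_11 aside in permutation tests was also decided with its values known. The procedure was tested on simulated data whose spread between libraries was set far below that of these data. The spread estimated by edgeR, as a coefficient of variation, was 1.32 (contralateral), 1.40 (ipsilateral) and 1.39 (both hemispheres). The simulation thus does not show how often changes would be found at this spread. The 7 genes were named in every comparison, other listed genes where the unadjusted p was under 0.05, and for likeness the 2 genes with the highest Spearman correlation with each; some results under these rules are not reported here; the 7 genes and all lists were chosen with earlier results of these data known. Figures were drawn with matplotlib 3.10.9.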

Additional observations from a re-analysis of the deposited data

Results flagged for a closer look

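Libraries far from the rest of their group were looked for in 48 groups of gene and condition by Dixon's criterion, and 5 were found; chance alone gives about 1 in 20 groups. Of these, 4 were the ipsilateral library of PTE- mouse a8_11, the one with 9020 detected genes. There Atp1b1 was lowest at 0.0368, Slc12a2 at 0.0727 and Slc4a4 at 6.32 on the log2(CPM + 1) scale, and Fxyd1 was highest at 9.17. The contralateral library of sham mouse a9_11 was the highest of its group for Slc8a1, at 4.71.

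The difference of the hemispheres was flagged between PTE- and sham mice for Slc8a1, at 5.83 on the log2 scale (edgeR interaction, unadjusted p = 0.0455). It was also flagged for Fxyd4, at 7.77 (edgeR interaction, unadjusted p = 0.0248). Neither passed the adjustment over all genes, and this fit has no term for the mouse. With the mouse as a replicate block Slc8a1 did not come under an unadjusted p of 0.05. Without sham mouse a9_11 its value was 2.63. Fxyd4 was above 3 counts in 1 of 8 ipsilateral and 0 of 8 contralateral PTE- libraries.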

How the results depend on the processing

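Of 581 values of the 7 genes under other settings, 516 kept their direction and their side of an unadjusted p of 0.05, 54 changed sign, 7 came under and 4 went over 0.05. With 1 library or mouse left out, 712 of 812 kept both and 82 changed sign. The values that changed sign are given below, and the cause was not tested. The mouse as a replicate block changed no other call than those given. Slc8a1 was at or under 3 counts in 11 of 37 libraries, which limits its precision.

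With the 2 compared groups alone, the number of the 7 genes with an unadjusted p under 0.05 became 1 (contra PTE+ minus sham). With DESeq2, the log2 fold change took the opposite sign for Atp1b3 0.0103 (contra PTE+ minus PTE-), 0.13 (side difference PTE- minus sham) and -0.0856 (side difference PTE+ minus PTE-), Slc4a4 0.00506 (contra PTE- minus sham). All genes with an adjusted p under 0.05 then numbered 132 (PTE- ipsi minus contra), 253 (PTE+ ipsi minus contra), 26 (contra PTE- minus sham), 23 (contra PTE+ minus PTE-), 31 (contra PTE+ minus sham), 19 (ipsi PTE- minus sham), 63 (ipsi PTE+ minus PTE-), 63 (ipsi PTE+ minus sham), 122 (sham ipsi minus contra), 136 (side difference PTE- minus sham) and 199 (side difference PTE+ minus PTE-). With RLE size factors, the log2 fold change took the opposite sign for Atp1b3 0.0103 (contra PTE+ minus PTE-), 0.13 (side difference PTE- minus sham) and -0.0856 (side difference PTE+ minus PTE-), Slc4a4 0.00507 (contra PTE- minus sham). With all 37 libraries, the log2 fold change took the opposite sign for Atp1b2 0.18 (side difference PTE+ minus PTE-), Fxyd1 -0.0772 (PTE+ ipsi minus contra). With limma on log2(TPM + 1), the log2 fold change took the opposite sign for Atp1b1 -0.30 (PTE- ipsi minus contra), 0.0129 (ipsi PTE+ minus sham) and -0.0992 (side difference PTE- minus sham), Atp1b2 0.0306 (PTE- ipsi minus contra), -0.18 (contra PTE- minus sham), 0.15 (ipsi PTE+ minus PTE-), 0.0248 (ipsi PTE+ minus sham), -0.20 (sham ipsi minus contra) and 0.23 (side difference PTE- minus sham), Atp1b3 0.28 (contra PTE+ minus PTE-), 0.35 (side difference PTE- minus sham) and -0.18 (side difference PTE+ minus PTE-), Fxyd1 0.0248 (ipsi PTE+ minus sham) and 0.15 (sham ipsi minus contra), Slc12a2 0.17 (contra PTE+ minus PTE-), Slc4a4 0.0869 (PTE- ipsi minus contra), 0.10 (PTE+ ipsi minus contra) and 0.0232 (contra PTE+ minus PTE-), Slc8a1 0.18 (contra PTE+ minus sham). Of the 7 genes, those with an unadjusted p under 0.05 then numbered 2 (PTE- ipsi minus contra), 1 (contra PTE- minus sham), 1 (contra PTE+ minus PTE-), 1 (ipsi PTE+ minus sham) and 0 (side difference PTE- minus sham). All genes with an adjusted p under 0.05 then numbered 0 (contra PTE+ minus PTE-). With the mouse as a replicate block, the log2 fold change took the opposite sign for Atp1b1 -0.0592 (PTE- ipsi minus contra), Atp1b2 -0.0692 (sham ipsi minus contra) and 0.0445 (side difference PTE+ minus PTE-), Atp1b3 0.11 (side difference PTE- minus sham) and -0.11 (side difference PTE+ minus PTE-), Fxyd1 0.00595 (sham ipsi minus contra). Of the 7 genes, those with an unadjusted p under 0.05 then numbered 0 (side difference PTE- minus sham). With the mouse name prefix as a covariate, the log2 fold change took the opposite sign for Atp1b3 0.00337 (contra PTE+ minus PTE-), Slc8a1 0.62 (contra PTE+ minus sham). Of the 7 genes, those with an unadjusted p under 0.05 then numbered 0 (ipsi PTE- minus sham). All genes with an adjusted p under 0.05 then numbered 0 (contra PTE+ minus PTE-). Without a filter on low counts, the log2 fold change took the opposite sign for Atp1b3 -0.00205 (side difference PTE+ minus PTE-). With the count of detected genes as a covariate, the log2 fold change took the opposite sign for Atp1b1 -0.0286 (contra PTE+ minus sham), Atp1b2 -0.0596 (contra PTE- minus sham), Slc12a2 0.073 (contra PTE+ minus PTE-). All genes with an adjusted p under 0.05 then numbered 0 (contra PTE+ minus PTE-). Without libraries under 12000 detected genes, the log2 fold change took the opposite sign for Atp1b1 0.20 (ipsi PTE- minus sham), -0.20 (ipsi PTE+ minus PTE-) and 0.00584 (ipsi PTE+ minus sham), Atp1b2 -0.0257 (contra PTE- minus sham), -0.31 (sham ipsi minus contra) and 0.28 (side difference PTE- minus sham), Atp1b3 0.12 (side difference PTE- minus sham) and -0.14 (side difference PTE+ minus PTE-), Slc12a2 0.13 (contra PTE+ minus PTE-) and 0.00552 (ipsi PTE- minus sham), Slc4a4 -0.12 (ipsi PTE+ minus PTE-), -0.24 (sham ipsi minus contra) and 0.17 (side difference PTE- minus sham). Of the 7 genes, those with an unadjusted p under 0.05 then numbered 1 (contra PTE- minus sham) and 0 (side difference PTE- minus sham). All genes with an adjusted p under 0.05 then numbered 0 (contra PTE+ minus PTE-). Here the difference in the Atp1b2 share was 0.495 percentage points (ipsi PTE+ minus PTE-).

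With 1 library or mouse left out in turn, the log2 fold change of Atp1b1 changed sign within the ranges -0.15 to 0.38 (PTE- ipsi minus contra), -0.24 to 0.26 (contra PTE+ minus sham), -0.43 to 0.0075 (ipsi PTE- minus sham), -0.28 to 0.35 (ipsi PTE+ minus PTE-), -0.50 to 0.13 (ipsi PTE+ minus sham), -0.25 to 0.0837 (sham ipsi minus contra) and -0.00868 to 0.52 (side difference PTE- minus sham). Atp1b2 changed sign within -0.21 to 0.0445 (PTE- ipsi minus contra), -0.12 to 0.0291 (PTE+ ipsi minus contra), -0.0576 to 0.13 (contra PTE- minus sham), -0.41 to 0.0926 (ipsi PTE- minus sham), -0.21 to 0.0709 (ipsi PTE+ minus PTE-), -0.31 to 0.22 (sham ipsi minus contra), -0.29 to 0.24 (side difference PTE- minus sham) and -0.12 to 0.14 (side difference PTE+ minus PTE-). Atp1b3 changed sign within -0.13 to 0.16 (contra PTE+ minus PTE-), -0.0268 to 0.23 (ipsi PTE+ minus PTE-), -0.0928 to 0.14 (side difference PTE- minus sham) and -0.14 to 0.22 (side difference PTE+ minus PTE-). Fxyd1 changed sign within -0.0468 to 0.099 (PTE+ ipsi minus contra), -0.45 to 0.0759 (contra PTE+ minus sham), -0.19 to 0.21 (sham ipsi minus contra) and -0.0938 to 0.31 (side difference PTE- minus sham). Slc12a2 changed sign within -0.23 to 0.20 (PTE+ ipsi minus contra), -0.19 to 0.17 (contra PTE+ minus PTE-) and -0.0448 to 0.73 (sham ipsi minus contra). Slc4a4 changed sign within -0.21 to 0.15 (PTE+ ipsi minus contra), -0.16 to 0.12 (contra PTE- minus sham), -0.0699 to 0.21 (ipsi PTE+ minus PTE-), -0.24 to 0.26 (sham ipsi minus contra), -0.47 to 0.0459 (side difference PTE- minus sham) and -0.0291 to 0.35 (side difference PTE+ minus PTE-). Slc8a1 changed sign within -1.22 to 1.16 (PTE+ ipsi minus contra), -2.45 to 1.27 (contra PTE- minus sham), -0.54 to 2.95 (contra PTE+ minus sham) and -4.30 to 0.13 (sham ipsi minus contra). The difference in the Atp1b2 share then ranged from -3.78 to 1.03 points (contra PTE- minus sham), from -11.19 to -7.52 points (contra PTE+ minus sham), from -6.03 to 0.62 points (ipsi PTE- minus sham) and from -6.36 to 0.0308 points (ipsi PTE+ minus PTE-). The number of the 7 genes with an unadjusted p under 0.05 then ranged from 0 to 1 (contra PTE- minus sham), 0 to 1 (contra PTE+ minus PTE-), 0 to 1 (ipsi PTE- minus sham) and 0 to 1 (side difference PTE- minus sham). The number of all genes with an adjusted p under 0.05 then ranged from 0 to 1 (contra PTE+ minus PTE-).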
